A study of Mus musculus with 20 samples.

Results

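The genes described here are those of the cytosolic ribosome in cultured mouse macrophages. They were taken by name, as every symbol made of Rpl or Rps with a number and at most a short suffix, together with Rplp0, Rplp1, Rplp2 and Rpsa. Of 51456 symbols in the tables, 88 matched, and 81 of these had a mean of at least 1 FPKQ (the authors' length-normalised transcript level) over 20 libraries. The large subunit accounted for 48 of the 81 and the small subunit for 33. The 7 left out were Rpl10l and Rps12l1, both listed at 0 in all 20 libraries, and Rpl3l, Rps3a3, Rpl6l, Rpl39l and Rps3a2, whose means were 0.0319, 0.183, 0.208, 0.448 and 0.686 FPKQ. Transcripts were sequenced from bone marrow macrophages of C57BL/6 mice aged 4 to 5 months, cultured for 6 days with CSF-1 at 50 ng/ml. The mice were wild type (WT Rep1 to Rep10), carried a knockout of Trem2 labelled as a 5 bp change (KO Rep1 to Rep5), or had the receptor's arginine-to-histidine change R47H (R47H Rep1 to Rep5). TREM2 is a surface receptor of myeloid cells that binds lipids, and both changes were present in the animals from which marrow was taken, so all cells of a culture shared them. The design text speaks of 5 animals per genotype and of littermate controls for each line. Which of the 10 WT libraries go with which line is not labelled, so all 10 served as controls for both.

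Ribosomal proteins surround and stabilise the ribosomal RNAs, and a functional ribosome needs nearly all of them in equal numbers. Their mRNAs are short and very abundant, and most start with an uninterrupted run of pyrimidines, the terminal oligopyrimidine (TOP) tract, through which growth signals acting on mTOR and LARP1 set their translation and stability. The mouse genome also holds a large number of processed copies of these genes, made by reverse transcription of their mRNAs, and some tissues express paralogs in place of the usual protein.

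Trem2 transcript checked the KO label, while an amino acid change such as R47H does not fix a transcript level, so the R47H value is a description. The mean of Trem2 in KO was 2.99% of that in the controls and its mean in R47H 80.9%. Two-sided exact permutation p-values were 0.000333 and 0.00833 over 3003 splits each. Trem2 in R47H was 673, 772 and 794 FPKQ in Rep1, Rep2 and Rep3 and 496 and 527 in Rep4 and Rep5. R47H Rep2 and Rep3 lay inside the wild-type range of 691 to 901. One FPKQ in a gene of 2 kb rested on 46.5 to 71.2 fragments, with 46.5 to 57.0 in KO and 56.3 to 71.2 in WT. The 7 macrophage markers were all expressed, and 5 of them (71.4%) were higher and 1 (14.3%) lower by limma (adjusted p under 0.05) in both mutants. Of all tested genes 28.2% were higher and 23.7% lower in KO, and 13.4% and 7.83% in R47H. The medians of the 7 markers were 0.48 in KO and 0.21 in R47H on the log2 scale. Their summed level ran from 22478 to 25814 FPKQ in WT, from 32621 to 35273 in KO and from 26213 to 29212 in R47H. No T cell, B cell, NK, erythroid or stroma marker reached a mean of 1 FPKQ. Of 9 neutrophil markers 4 reached that level, of which 1 (Csf3r) rose in KO and 2 rose in R47H, with medians of 0.10 and 0.49, while Ly6g was at 0 or near it. The summed level of the neutrophil markers ran from 70.6 to 107 FPKQ in WT, from 98.6 to 129 in KO and from 86.3 to 150.3 in R47H. The part of these markers in the results below was not tested. Of 5 dendritic markers only Siglech was tested, and it did not pass in KO.

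The near-identical copies come first because they bear on what a listed level means. Of the 81 genes, 75 had at least 1 copy among the files' symbols that matched their coding sequence with at least 95% identity over at least 90% of its length. For 35 genes a copy was itself listed at a mean of 1 FPKQ or more (45 copies in all), and 16 of these copies were identical over the aligned coding sequence. Reads inside such a stretch cannot be assigned to one locus by sequence. A pair that is identical and a pair that is not show this. Rpl10 (chrX:74270812-74273135, plus strand, GRCm38), a large subunit protein near the catalytic centre, and Rpl10-ps3 (chr9:50344201-50344968, minus strand) had 0 differences over 642 coding bases. Rps20 (small subunit) and Gm4332 (chr3:119709516-119709861, plus strand) differed once in 346 compared bases, by the substitution G324A counted from the first coding base of Rps20. Coding bases 1 to 45 of the first pair and 302 to 346 of the second are shown from GENCODE M21 transcripts, with the differing base in capitals.
Rpl10: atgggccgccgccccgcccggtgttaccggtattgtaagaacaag
Rpl10-ps3: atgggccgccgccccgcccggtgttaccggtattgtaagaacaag
Rps20: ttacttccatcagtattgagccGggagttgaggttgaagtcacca
Gm4332: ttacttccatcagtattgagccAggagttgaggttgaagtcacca

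As listed, the 77 genes that are not paralogs spanned 234-fold in mean level, from 6.96 FPKQ for Rpl12 to 1631 for Rps9, with a median of 689. Summed with their copies they spanned 6.00-fold, from 272 FPKQ for Rpl37 to the same Rps9, with a median of 713. The genes at the bottom were those whose copies were listed high. Rpl12, a protein at the base of the stalk, was listed at 6.96 FPKQ and its copies at 791 together. Rps12, of the small subunit, stood at 19.0 and Rps12-ps3 at 1080. Rpl5, which carries the 5S ribosomal RNA and binds Mdm2, stood at 24.3 and Gm15500 at 788. Rpl27 stood at 31.3 and Rpl27-ps3 at 451, and Rps20 at 101 and Gm4332 at 177. Copies held over 50% of the summed level for 6 genes, these 5 and Rpl10 (439 FPKQ, with Rpl10-ps3 at 1131). The submitters' notes name RSEM, which can divide fragments among similar genes, but no source used here gives the outcome for these pairs. The listed level of these 6 genes is therefore read together with that of the copies.

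**Figure D1:**
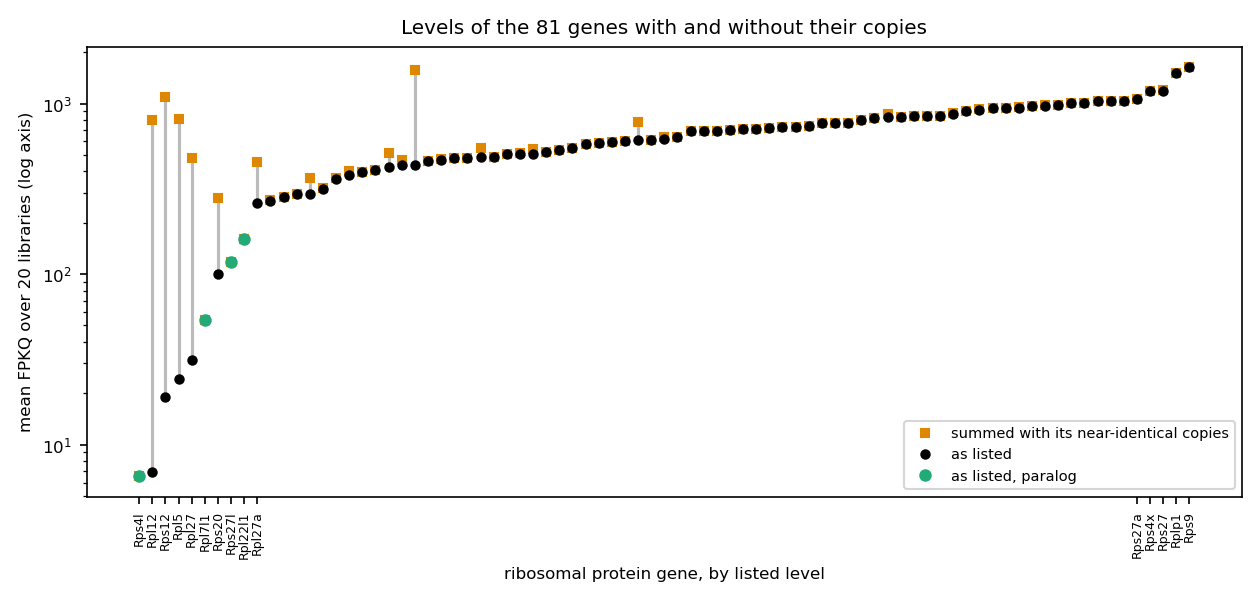
Mean FPKQ over 20 libraries (log axis) of each of the 81 ribosomal protein genes, ordered by listed level, as listed (circles; green for 4 paralogs) and after adding near-identical copies listed at 1 FPKQ or more (squares). The axis names the 10 lowest and the 5 highest genes and the paralogs. Rpl12, Rps12, Rpl5 and Rpl27 move from 6.96, 19.0, 24.3 and 31.3 FPKQ to 798, 1099, 813 and 482.

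At the top of the list stood Rps9 (chr7:3703993-3706897, plus strand), an early-binding protein of the small subunit, with a mean of 1631 FPKQ. Rplp1, an acidic protein of the stalk that recruits elongation factors, followed at 1511. Then came Rps27 at 1187, Rps4x at 1186 and Rps27a, made as a fusion with ubiquitin, at 1068. Rps9 and Rplp1 did not separate beyond their spread, since Rps9 ran from 1279 to 1712 and Rplp1 from 1084 to 1720 in wild type alone. In WT Rep2 Rplp1 was the higher of them. Rps9 was above Rps27, Rps4x and Rps27a in every library.

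Start sites were looked up for the 81 genes in RefSeq windows of 250 bases before to 50 after each start (GRCm38.p6), which held 60 of them. A run of at least 8 C or T on the transcribed strand, within 20 bases either side of the start, stood in 30 of the 60 (50.0%) and in 19.0% of 8283 other tested genes. The same search on the opposite strand gave 8.33% and 19.0%. CTTTCC in the same 20 bases, transcribed strand, was present in 16.7% against 2.25%. Over the whole window on both strands, CCGGAAG was found in 41.7% against 22.4%, GGGCGG in 63.3% against 69.7% and AAGATGG in 16.7% against 9.03%. TATAAA within 50 bases before the start stood in 1.67% against 1.61%. The 30 bases around the start are shown for 6 genes that the results below turn on and for the paralog Rpl22l1, with the longest run of at least 6 pyrimidines in capitals. Rpl7l1, Rpl10 and Rps4x held no such run in these 30 bases. Positions are chr4:86857353-86857382 (minus) for Rps6, chr14:24490663-24490692 (plus, the first of 2 starts) for Rps24, chr7:118116133-118116162 (minus) for Rps15a, chr11:114668565-114668594 (plus) for Rpl38, chr3:28805493-28805522 (plus) for Rpl22l1, chr17:46782642-46782671 (minus) for Rpl7l1 and chrX:74270801-74270830 (plus) for Rpl10. Rps27a had no entry in the table.
Rps6: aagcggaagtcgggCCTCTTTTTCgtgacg
Rps24: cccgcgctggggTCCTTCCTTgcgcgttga
Rps15a: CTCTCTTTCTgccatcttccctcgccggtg
Rpl38: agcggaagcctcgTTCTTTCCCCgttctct
Rpl22l1: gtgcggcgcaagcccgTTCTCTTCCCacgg
Rpl7l1: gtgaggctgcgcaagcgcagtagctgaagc
Rpl10: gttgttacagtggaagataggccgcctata

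The 81 genes moved together from library to library within each genotype. After group means were removed, the median correlation between 2 of them was 0.72 over 20 libraries (log2 scale), and 96.5% of pairs were above 0. Among 330 other genes that averaged 200 FPKQ or more the median was 0.16 and 63.5% were above 0. Those 330 were chosen by level and not by coding length. The median of the 81 correlated at 0.97 with that of 38 other short abundant mRNAs and at -0.08 with that of 229 long ones, both described below. Moving together was therefore not particular to the ribosomal protein genes. These correlations are a description, since all values of a library share its preparation, depth and FPKQ scale. Large and small subunit genes did not part. Pairs within the large subunit had a median of 0.72 and pairs within the small subunit 0.72, and the ratio of the summed subunits averaged 1.29 ± 0.0187 over the WT libraries (SD, n = 10), 1.29 ± 0.0236 over KO (n = 5) and 1.28 ± 0.0312 over R47H (n = 5). The genes least tied to the median of the 81 were Rpl7l1 (r = -0.30), the pseudogene Rps4l (0.01), Rpl10 (0.35), Rps10 (0.36) and Rpl13 (0.41). Rps27a (0.98) and Rpl3 (0.97) were among those most tied to it.

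A single number per library carries most of that pattern. The median of the 81 genes, as a log2 difference from the wild-type mean, ran from -0.26 in WT Rep7 to 0.20 in WT Rep2. In KO it was -0.16, 0.00, -0.05, -0.03 and -0.45 in Rep1 to Rep5. In R47H it was 0.13, 0.37, 0.30, -0.13 and -0.08. KO Rep5 therefore stood apart from the other 4 KO libraries, and the R47H libraries were high in Rep1 to Rep3 and low in Rep4 and Rep5, as Trem2 was. Each of the 3 genotypes overlapped the others in this value.

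Other mRNAs were set beside these values by coding length, since ribosomal protein mRNAs are short. For 38 other genes with at most 300 coding bases that averaged 100 FPKQ or more, the median difference was -0.41 in KO Rep5, -0.17 in WT Rep7, 0.38 in R47H Rep2 and 0.32 in R47H Rep3. The medians of the 38 and of the 81 had the same sign in 20 of 20 libraries and differed by at most 0.0889, although only 10 of the 81 are that short. At equal length the ribosomal protein genes lay farther from the wild-type mean in KO Rep5. Among genes of at most 300 bases the 10 ribosomal ones were at -0.60 there, against -0.41 for the 38 others. Among genes of 300 to 600 bases the 47 ribosomal ones were at -0.47 and 172 others at -0.09, and among those of 600 to 1200 bases 21 ribosomal ones were at -0.36 and 282 others at -0.02. This was not particular to KO Rep5. In WT Rep7 the ribosomal genes of these classes, shortest first, were at -0.39, -0.28 and -0.17, and the others at -0.17, -0.11 and -0.05. In R47H Rep2 and Rep3 the middle class was closer, at 0.37 and 0.30 for the ribosomal genes and 0.29 in both libraries for the others. In the shortest class R47H Rep2 was at 0.67 for the ribosomal genes and 0.38 for the others, and R47H Rep3 at 0.32 for both. In 229 genes with coding sequences of 1200 to 3000 bases the median was 0.10 in KO Rep5, -0.01 in WT Rep7 and 0.11 in R47H Rep2. Within the ribosomal protein genes the spread also followed coding length. The 10 shortest, of at most 300 bases, had a median SD within groups of 0.285 on the log2 scale, the 47 of 300 to 600 bases 0.204 and the 23 longer ones 0.147 (rank correlation -0.68 over 80 genes with a coding sequence, a description). Rpl4 (0.0814) and Rps4x (0.106) varied little, and Rps29 (0.373) and Rpl36a (0.398) varied most among genes listed above 200 FPKQ. Over all tested genes the median SD was 0.132.

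**Figure D2:**
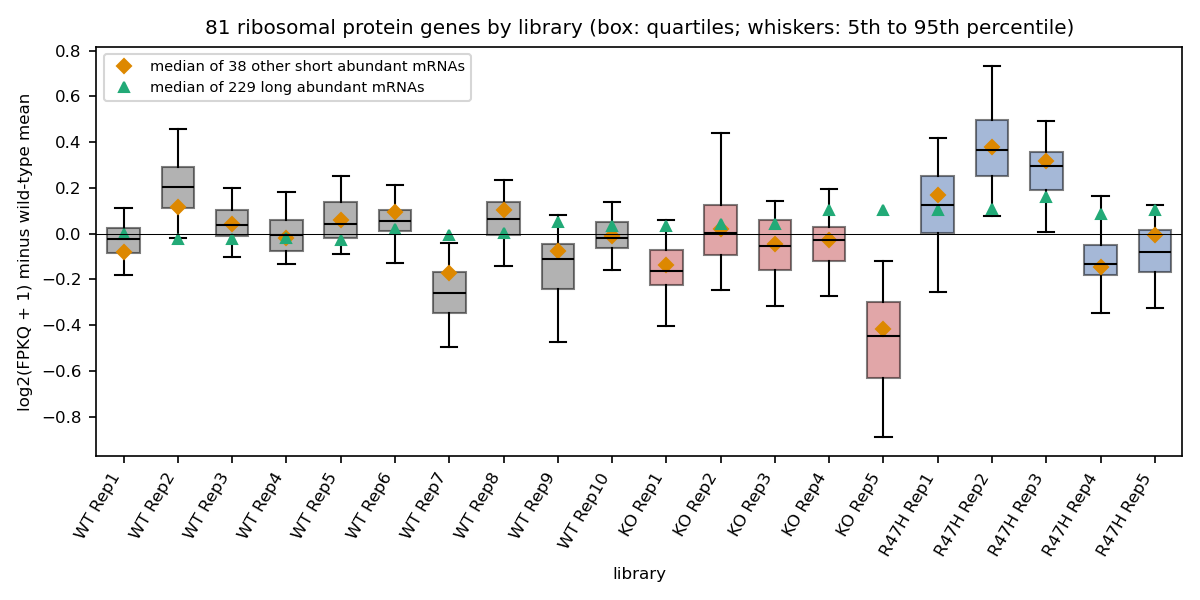
Log2(FPKQ + 1) minus the wild-type mean for the 81 ribosomal protein genes in each of 20 libraries (boxes: quartiles; line: median; whiskers: 5th to 95th percentile; grey WT, red KO, blue R47H). Diamonds give the median of 38 other abundant mRNAs of at most 300 coding bases and triangles that of 229 long ones: diamonds run from -0.41 in KO Rep5 to 0.38 in R47H Rep2, and triangles stay at 0.10 and 0.11 there.

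In KO macrophages, Rps27a, Rps6 and Rps24 were lower than in wild type, and Rpl10 was the 1 gene listed higher. Of the 81 genes 19 were lower and 1 higher by limma (adjusted p under 0.05), and the other 61 did not pass. Among all 10843 genes tested, 23.7% were lower and 28.2% higher, so the share of ribosomal protein genes that were lower (23.5%) was close to the background. Of the 407 tested genes averaging 200 FPKQ or more, which include most of the 81 and some of their copies, 129 were lower, a larger share than among the 81. The mRNA came from whole cultures, so fewer cells of a kind and less mRNA per cell cannot be told apart. The median difference of the 81 was -0.15 against 0.01 for all tested genes, and 73 of 81 lay below 0. The large subunit gave 13 lower of 48 with a median of -0.15, and the small subunit 6 of 33 with -0.13. Without KO Rep5 the count of lower genes was 5 with a median of -0.06, and those 5 were Rpl7l1, Rpl9, Rps24, Rps27a and Rps6. Without KO Rep1 it was 11. Among the other settings tried it ran from 2, with depth as a covariate, to 44, with equal sums of the other genes. The log2 factor of that scale differed by -0.10 on average between KO and wild type, and it applies to all genes alike. Shares of all tested genes called under these settings are not given here, so these counts show nothing particular to ribosomal protein genes. With the level of the 38 other mRNAs of at most 300 bases as a covariate, an alternative chosen after seeing the data, 11 were lower and 9 higher and the median was 0.00. Within groups that level correlated with the median of the 81 at r = 0.97. Adjusting for it comes near adjusting for the 81 themselves, so this median was largely set in advance and decides nothing about the KO difference.

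Rps27a (chr11:29545846-29548109, minus strand) was listed at 868, 933, 916, 919 and 652 FPKQ in KO Rep1 to Rep5. In wild type it ran from 942 to 1326 with a median of 1138, so every KO library lay below every wild-type library. The log2 difference was -0.41 ± 0.10 (SE), with an adjusted p of 0.00203 by limma. It passed under each of 31 alternatives, from -0.51 to -0.25.

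Rps6 (chr4:86854660-86857412, minus strand), the small subunit protein phosphorylated by the S6 kinases, was listed at 754, 817, 818, 876 and 775 FPKQ in KO and from 920 to 1141 (median 988) in wild type. Here too the groups did not overlap. The log2 difference was -0.31 ± 0.08 (SE; limma adjusted p = 0.00237), and it also passed under each of 31 alternatives, with an adjusted p of at most 0.0414. Rpl9 was the other gene with no overlap, named after its values were seen, at 680 to 773 FPKQ in KO and 813 to 960 in wild type. These 3 were 3.70% of the 81, against 13.3% of all tested genes with KO wholly below wild type.

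Rps24 (chr14:24487125-24496959, plus strand), a small subunit protein mutated in some cases of Diamond-Blackfan anaemia, was listed at 769, 835, 789, 934 and 646 FPKQ in KO and from 872 to 1151 (median 988) in wild type. Only KO Rep4 reached into the wild-type range. The log2 difference was -0.33 ± 0.09 (SE; limma adjusted p = 0.00645), and the call was lost under 1 of 31 alternatives, with depth as a covariate (adjusted p = 0.178).

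The other named falls came from genes with high copies. Rpl27 was listed at 18.0, 35.7, 25.3, 31.7 and 15.1 FPKQ in KO and from 26.4 to 41.1 in wild type (log2 difference -0.47 ± 0.16 SE, limma adjusted p = 0.0158). Summed with Rpl27-ps3 it averaged 449 ± 121 over KO and 481 ± 88.0 over the controls (SD; n = 5 and 10), with a log2 difference of -0.13 and a limma adjusted p of 0.53. Rpl5 went from -0.30 (limma adjusted p = 0.0363) to -0.13 (0.0676) when summed. Rpl12 went from -0.36 (limma adjusted p = 0.0362) to -0.22 (0.0114), so its call remained and the Rpl27 and Rpl5 calls did not. The listed calls were lost under 7, 14 and 11 of 31 alternatives for Rpl27, Rpl5 and Rpl12, among them the omission of KO Rep1 or Rep5 for each, of KO Rep4 for Rpl5 and Rpl12, of WT Rep2, Rep3 or Rep8 for both, of WT Rep5 for Rpl12 and of WT Rep6 or Rep9 for Rpl5.

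Rpl10 showed the reverse direction as listed. It stood at 511, 542, 401, 474 and 441 FPKQ in KO, at 475, 619, 464, 593 and 345 in R47H, and from 322 to 473 (median 375) in wild type. The log2 difference was 0.28 ± 0.11 (SE; limma adjusted p = 0.0421) in KO and 0.33 ± 0.11 (0.039) in R47H. KO Rep3 and Rep5 and R47H Rep3 and Rep5 lay inside the wild-type range, and KO Rep4 and R47H Rep1 were barely above it. Its identical copy Rpl10-ps3 averaged 1055 ± 55.9 FPKQ over the 5 KO libraries (SD), 1246 ± 226 over the 5 R47H libraries and 1112 ± 80.8 over the 10 controls. Summed, the KO difference was 0.03 (limma adjusted p = 0.761) and the R47H difference 0.21 (0.038). The listed call was lost under 19 of 31 alternatives in KO and under 23 of 31 in R47H. These included the omission of WT Rep3, Rep4, Rep5, Rep6, Rep7, Rep9 or Rep10 in both, of KO Rep1, Rep2 or Rep4 and of any of R47H Rep1 to Rep4.

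**Figure D3:**
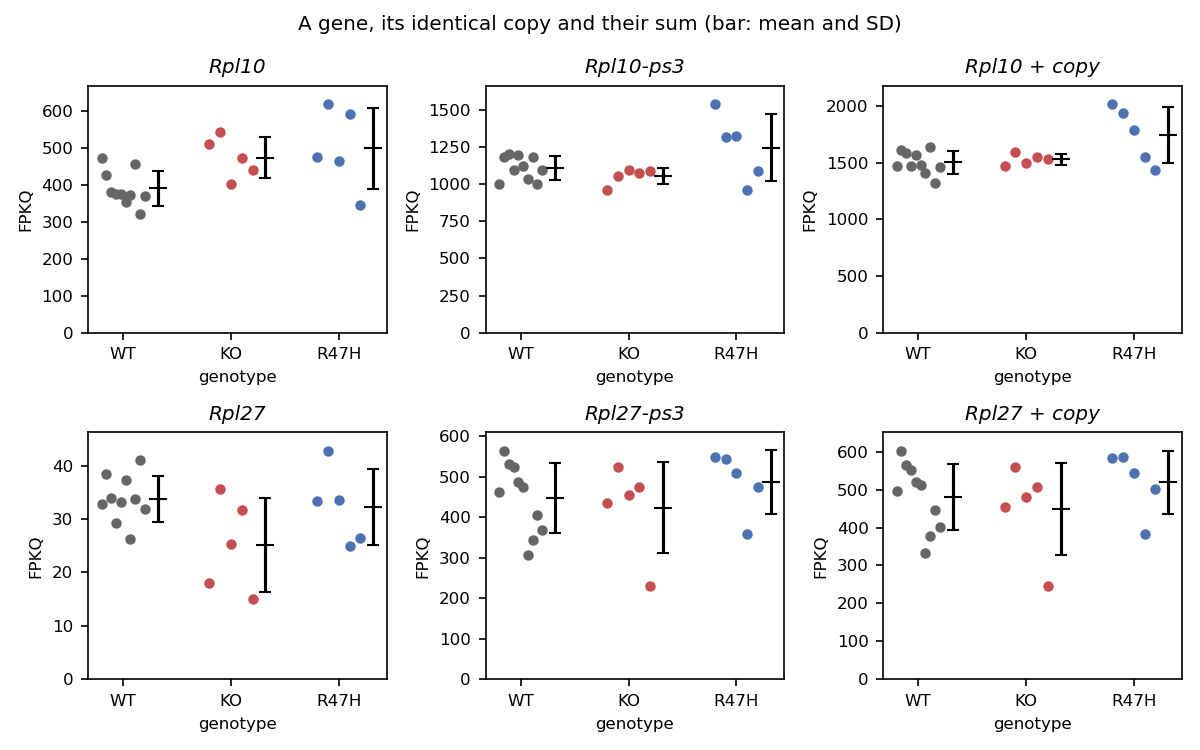
FPKQ by library and genotype for Rpl10 and Rpl27, for the copy identical to each over its coding sequence, and for the sum (points: libraries; bar: mean and SD; n = 10, 5 and 5). Rpl10 is higher in KO as listed, and the sum with its copy averages 1502 in WT and 1529 in KO.

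In R47H macrophages the 81 genes as a whole did not separate from wild type. None was lower and only Rpl10 was higher by limma (adjusted p under 0.05), with 13.4% of all tested genes higher and 7.83% lower. At an unadjusted p under 0.05, 8 were higher and 1 lower. The median difference was 0.10 against 0.04 for all tested genes, and 71 of 81 lay above 0. Making library sums equal used a log2 scale factor that differed by -0.12 on average between R47H and wild type. It put the median of the 81 at -0.02, so the sign depends on a scale common to all genes. The 10 shortest genes had a median difference of 0.25, the middle class 0.11 and the long class 0.06. Rpl38, a short gene of the large subunit, was at 566, 730, 641, 484 and 497 FPKQ in R47H and from 343 to 558 in wild type, and its difference of 0.34 ± 0.13 (SE) missed the threshold (limma adjusted p = 0.0646).

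**Figure D4:**
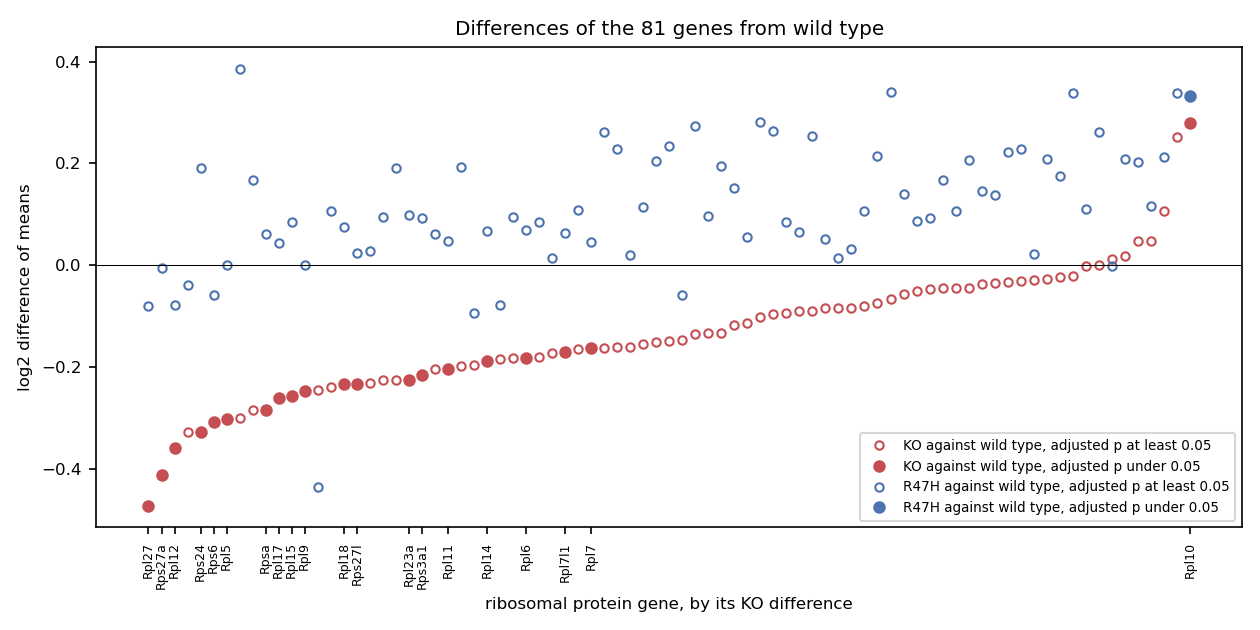
Log2 difference of means from wild type for each of the 81 genes in KO (red) and R47H (blue), ordered by the KO value; filled points have a limma adjusted p under 0.05, and their genes are named on the axis. In KO 73 of 81 lie below 0 and in R47H 71 lie above it; both sets share the same 10 control libraries.

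R47H against KO gave the widest difference between genotypes. Of the 81 genes 27 were higher in R47H and none lower by limma (adjusted p under 0.05), and none was lower at an unadjusted p under 0.05 either. Among all tested genes 22.8% were higher and 18.0% lower, and among the 407 averaging 200 FPKQ or more 163 were higher. The share of ribosomal protein genes that were higher was 33.3%, above that of all tested genes and below that of the 407, which include most of the 81. The median difference was 0.25 against 0.03 for all tested genes. The count rested on single libraries: it was 10 without KO Rep5, 10 without R47H Rep2, 11 without R47H Rep3 and 49 without R47H Rep4. Shares of all tested genes without these libraries are not given here. With the level of the other short mRNAs as a covariate it was 2 higher (Rpl7l1 and Rps24) and 1 lower (Rpl13a), with a median of -0.03. Since this covariate follows the median of the 81 closely, that result was again largely set in advance.

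Rps24 had the largest called rise. Its R47H values were 1360, 1271, 1174, 1004 and 908 FPKQ, and only KO Rep4 (934) came above the lowest of them. The log2 difference was 0.52 ± 0.11 (SE; limma adjusted p = 0.000883), and it passed under each of 24 alternatives. Rps15a, of the small subunit, was at 389, 383, 390, 263 and 263 FPKQ in R47H and 243, 282, 273, 251 and 179 in KO, a difference of 0.45 ± 0.14 (SE; limma adjusted p = 0.0152). R47H Rep4 and Rep5 lay inside the KO range. Rpl21 was at 427, 422, 393, 302 and 311 FPKQ in R47H and 257, 304, 295, 300 and 221 in KO, a difference of 0.42 ± 0.11 (SE; limma adjusted p = 0.00421). Its low R47H libraries were again Rep4 and Rep5. Rpl31, Rpl38 and Rps27a rose by 0.42, 0.41 and 0.41 (limma adjusted p = 0.027, 0.0336 and 0.00988). These calls were less stable than that of Rps24. Of 24 alternatives Rpl38 was lost under 9, with log2 differences down to 0.01, Rpl31 under 8, Rps15a under 3, Rps27a under 2 and Rpl21 under 1, and each of the 5 was lost with the short mRNA covariate. Without KO Rep5 Rpl38, Rpl31 and Rps15a did not pass, without R47H Rep2 Rpl38 and Rpl31, without KO Rep1 or R47H Rep3 Rpl38, and without R47H Rep1 Rpl31.

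**Figure D5:**
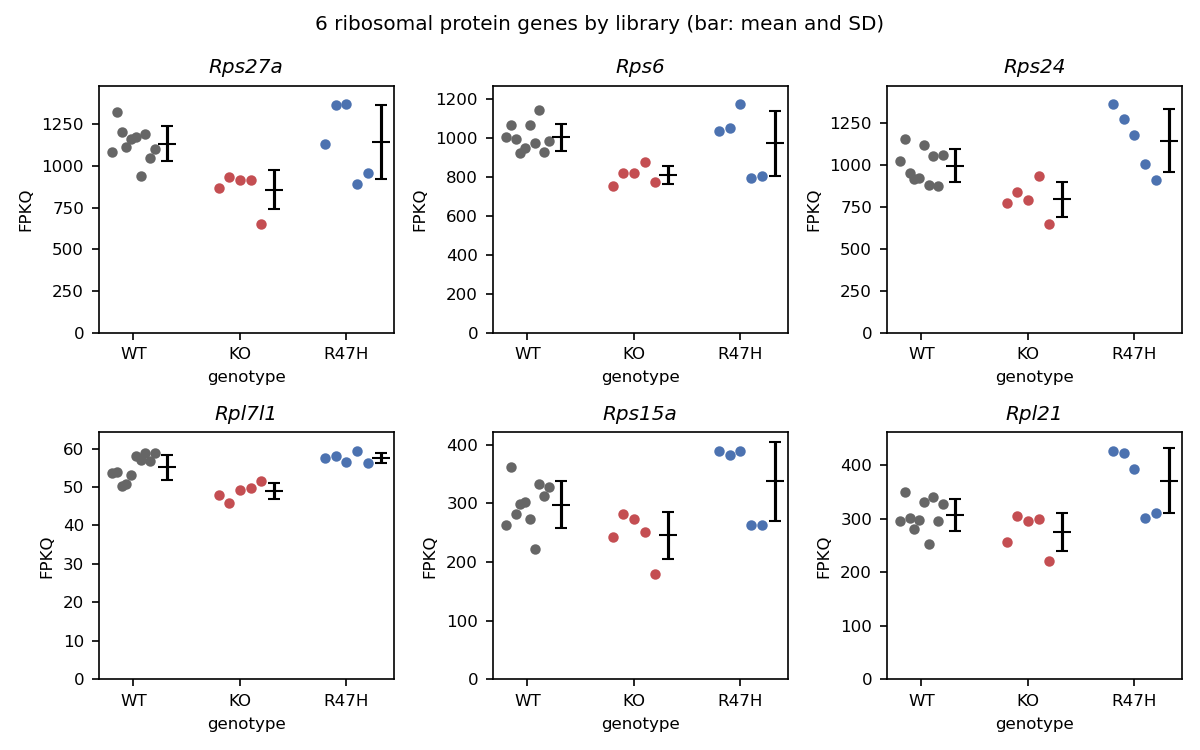
FPKQ by library and genotype for 6 genes (points: libraries; bar: mean and SD; n = 10 WT, 5 KO, 5 R47H). KO libraries lie wholly below WT for Rps27a and Rps6, and R47H libraries lie wholly above KO for Rpl7l1.

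The 4 paralogs that passed the filter are given beside their partners. Rpl7l1, a relative of Rpl7 known from ribosome assembly, was listed at 47.8, 45.9, 49.3, 49.8 and 51.6 FPKQ in KO, at 57.5, 58.1, 56.6, 59.4 and 56.3 in R47H, and from 50.4 to 58.9 (median 55.4) in wild type. All 5 R47H libraries lay above all 5 KO libraries, which held for 1 of the 81 genes (1.23%) and for 12.3% of all tested genes. The difference was 0.23 ± 0.05 (SE; limma adjusted p = 0.000853) and passed under each of 24 alternatives. The wild-type sets did not overlap either, at 50.4 to 53.9 FPKQ in WT Rep1 to Rep5 and 56.9 to 58.9 in WT Rep6 to Rep10. R47H differed by 0.13 on the log2 scale from the first set alone and by -0.008 from the second. How far a difference between sets of animals enters the R47H against KO value was not tested. In KO against wild type Rpl7l1 fell by 0.17 on the log2 scale (limma adjusted p = 0.00208), and did not pass where WT Rep1 to Rep5 were the controls, with depth as a covariate or with a replicate block. It also had the smallest spread of the 81 (SD 0.069 on the log2 scale). Its partner Rpl7 averaged 853 ± 65.0, 760 ± 27.4 and 884 ± 114 FPKQ over the WT, KO and R47H libraries (SD; n = 10, 5 and 5), and Rpl7l1 stood at 6.48%, 6.43% and 6.61% of it.

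Rps27l, a p53-responsive paralog of Rps27, was at 107, 115, 112, 106 and 79.2 FPKQ in KO and from 101 to 141 (median 124) in wild type, so 4 KO libraries lay inside the wild-type range. The difference was -0.23 ± 0.09 (SE; limma adjusted p = 0.0286), and it did not pass under 5 of 31 alternatives: without KO Rep5, where WT Rep6 to Rep10 were the controls, with no filter on low values, and with depth or the short mRNA level as a covariate. Rps27 itself averaged 1151 ± 137 over the KO libraries and 1135 ± 128 over the controls (SD), with a difference of 0.02. Rps27l was 10.8% ± 1.04, 8.99% ± 0.397 and 9.51% ± 1.36 of Rps27 in WT, KO and R47H (SD; n = 10, 5 and 5), and the ratio was not tested.

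Rpl22l1, which can take the place of Rpl22 and is known for opposing it in blood cell development, was at 146, 167, 156, 135 and 79.4 FPKQ in KO, at 169, 208, 184, 120 and 146 in R47H, and from 126 to 226 (median 168) in wild type. Only KO Rep5 and R47H Rep4 fell outside the wild-type range. The KO difference of -0.33 ± 0.16 (SE) missed the threshold (limma adjusted p = 0.0837). Rpl22l1 stood at 41.6% ± 4.83, 35.1% ± 5.04 and 37.5% ± 2.93 of Rpl22 in WT, KO and R47H (SD; n = 10, 5 and 5). Rps4l, which GENCODE lists without a coding sequence, was at 6.53 FPKQ on average, under 1% of Rps4x, and did not pass in any of the 4 comparisons. Of the partners not yet described, Rpl3 averaged 747 ± 43.0, 676 ± 59.9 and 720 ± 71.1 FPKQ in WT, KO and R47H (SD; n = 10, 5 and 5), and Rpl39 370 ± 63.7, 362 ± 59.8 and 428 ± 83.1.

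The 3 stalk genes did not pass in any genotype comparison. Rplp0, which anchors the stalk, averaged 1039 ± 47.1, 975 ± 51.0 and 1111 ± 161 FPKQ in WT, KO and R47H (SD; n = 10, 5 and 5). Rplp1 averaged 1438 ± 210, 1484 ± 207 and 1682 ± 436, and Rplp2 583 ± 90.7, 519 ± 45.7 and 640 ± 171. The largest difference among them in KO was -0.15 for Rplp2, with a limma adjusted p of 0.325.

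WT Rep6 to Rep10 against WT Rep1 to Rep5 shows how far the same genes differ between wild-type libraries. The median difference was -0.10, against 0.00 for all tested genes, with 68 of 81 below 0. By limma (adjusted p under 0.05) only Rpl7l1 was higher, by 0.14 ± 0.04 (SE; adjusted p = 0.0265), and none was lower. The Rpl7l1 call was lost under 8 of 22 alternatives, among them the omission of WT Rep3, Rep4, Rep6, Rep8 or Rep10. Of all tested genes 3.63% were higher and 2.88% lower. At an unadjusted p under 0.05, 7 of the 81 were lower. The size of this median is to be set beside -0.15 in KO and 0.10 in R47H. KO against WT Rep6 to Rep10 alone gave 6 lower and a median of -0.06, and against WT Rep1 to Rep5 alone 15 lower and a median of -0.19. The short genes moved the other way from R47H: the 10 shortest had a median of -0.26 and the 23 longest -0.04.

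Genes outside the pattern that belong to the translation machinery or share the TOP tract were counted beside them, to be read against all tested genes, of which 23.7% were lower and 28.2% higher in KO and 7.83% lower and 13.4% higher in R47H. Of 18 elongation factors and other mRNAs with a TOP tract, 5 were lower (27.8%) and 1 higher (5.56%) in KO, and 2 were lower (11.1%) and none higher in R47H by limma, so the shares that were lower were near the background. Nap1l1, a histone chaperone, fell by 0.83 in KO and by 0.37 in R47H on the log2 scale. Hnrnpa1, a splicing factor, fell by 0.50 in KO, and Btf3, which binds nascent chains, by 0.32. Eef1a1, the most abundant of them at 5385 FPKQ in wild type, differed by -0.07 in KO and did not pass.

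Of 39 biogenesis genes 14 were lower (35.9%, against 23.7% of all tested genes) and 2 higher (5.13%, against 28.2%) in KO, with a median of -0.10, while 2 were lower (5.13%, against 7.83%) and 1 higher (2.56%, against 13.4%) in R47H. Nop56, a core protein of box C/D particles that guide methylation of ribosomal RNA, averaged 37.1 ± 2.87 FPKQ over the controls and 24.8 ± 1.45 over KO (SD; n = 10 and 5), a log2 difference of -0.56. Lyar fell by 0.41 in KO, and Heatr1, of the small subunit processome, rose by 0.46. Of 11 RNA polymerase I genes 5 were lower (45.5%, against 23.7% of all tested genes) and none higher in KO, and 1 was lower and 1 higher (9.09% each) in R47H. Those lower in KO included the factor Ubtf by 0.25, Polr1e by 0.48 and the catalytic subunit gene Polr1a by 0.31.

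Among 13 regulators, 5 were lower (38.5%) and 3 higher (23.1%) in KO, against 23.7% and 28.2% of all tested genes, and 1 was higher (7.69%) and none lower in R47H. Myc, a transcription factor that drives ribosome production, averaged 14.95 ± 5.72, 3.09 ± 0.448 and 9.94 ± 1.49 FPKQ in WT, KO and R47H (SD; n = 10, 5 and 5), a KO difference of -1.88 ± 0.20 (SE). Eif4ebp2, a translation repressor under mTOR, rose by 0.54 in KO and by 0.28 in R47H. Mdm2, which Rpl5 and Rpl11 bind, fell by 0.44 in KO. The 10 cell division genes were all lower in KO (median -2.31) and in R47H (median -1.14). The part of these changes in the ribosomal protein levels was not tested.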

How the data were processed

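Poly-A RNA of 20 cultures was sequenced by a strand-specific dUTP protocol with paired reads, per the labels' protocols. For each library the authors deposited an FPKQ per gene symbol, a unit no source here defines, and it was handled as an FPKM with a quantile-based scale. The submitters' processing notes name RSEM and GRCm38. RSEM can divide fragments among similar genes, which bears on genes with copies. Between 85.0% and 88.7% of low values were whole multiples of 1 fragment (tolerance 0.1), so no count test was run. The members and gene lists were chosen with earlier results of these data known.

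Values were analysed as log2(FPKQ + 1) for the 10843 genes averaging 1 FPKQ or more, so differences understate the change of low genes. limma 3.58.1 in R 4.3.3 (lmFit, eBayes with a trend) was fitted to all 20 libraries and 3 groups, or to 4 groups for the comparison within wild type, with Benjamini-Hochberg adjustment over all tested genes. All adjusted p-values are from this test. On simulated data with 10843 genes it recovered 55.2% of genes changed 1.25-fold and 94.0% of those changed 1.5-fold for KO against wild type, with 5 false calls. For R47H against KO the shares were 44.8% and 86.6%, with 9 false calls. The simulation changed 66 or 67 genes at each fold and drew errors independently for each gene. In the data many more genes were called and the ribosomal protein genes moved together, so these shares do not carry over to them.

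GENCODE M21 (GRCm38) held 45889 of the 51456 symbols. Copies were found by aligning each coding sequence to all its transcripts with blastn 2.17.0. A copy was summed with its gene where it lay on the same strand, at least 40% of its transcript aligned and its mean was at least 1 FPKQ. Promoter sequences are from RefSeq. Tables and figures were made with numpy 2.4.6 and pandas 2.3.3 in Python 3.11.15.

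Named with values are the stalk genes, the paralogs and partners, the 5 highest and 5 lowest genes, and up to 6 called rises and falls per comparison. For the mutants against wild type these needed the same sign against both wild-type sets. Of each other list up to 3 called genes with the smallest adjusted p in KO are named, and others beside them are listed genes chosen after their values were seen. No pair of libraries held identical values. Alternatives covered the pseudocount, the filter, scaling, moderation, weights, covariates, the controls, a block for the replicate number and the omission of single libraries. Summing copies and the covariate from other short mRNAs were added after seeing the data. Results for some genes are not reported here.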

Additional observations from a re-analysis of the deposited data

Results flagged for a closer look

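In 90 groups of 5 or 10 libraries (26 named genes and 4 library summaries in each genotype), 3 single values lay far from the rest of their group by Dixon's criterion, where chance sets apart about 5% of groups, or 4.5 of 90. Rps27a in KO Rep5 was 652 FPKQ, against 868 in the next lowest KO library, and Rps27l in the same library was 79.2 against 106. KO Rep5 was also the lowest KO library for the median of the 81 genes (-0.45) and for the median of 38 other short mRNAs (-0.41), and held ribosomal protein transcripts at 6.21% of the summed FPKQ, against 7.67% to 8.33% in the other 4. Without it the Rps27a fall remained called and the Rps27l fall did not. Rps4l in WT Rep5 was 12.3 FPKQ, against 7.70 in the next highest wild-type library.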

How the results depend on the processing

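For KO against wild type (19 lower, 1 higher, median log2 difference -0.15), 11 genes were lower and 0 higher with no filter on low values, 41 and 0 with equal sums, 44 and 0 with equal sums of the other genes, 25 and 0 with median-of-ratios scaling, and 16 and 5 with quantile normalization. With depth as a covariate 2 were lower and 0 higher, with copies summed 16 and 0, with the other short mRNAs as a covariate 11 and 9, and with only these 2 groups 30 and 1. WT Rep1 to Rep5 alone gave 15 and 0, and WT Rep6 to Rep10 alone 6 and 0. Leaving out each library gave 5 to 26 lower, 0 to 2 higher and medians of -0.18 to -0.06. Such settings can also change how many of all genes are called. Those shares are not given for any setting here or above, so the counts are not a result particular to ribosomal protein genes.

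For R47H against wild type (0 lower, 1 higher, median 0.10), 0 were higher with no filter, median of ratios or depth as a covariate. With equal sums 4 were lower and 0 higher, with equal sums of the other genes 3 and 0, with quantile normalization 4 and 0, with library weights 1 and 0, and with the short mRNA covariate 5 and 0. Summed copies gave 2 higher, and only these 2 groups 2 higher. Leaving out each library gave 0 lower, 0 to 4 higher and medians of 0.05 to 0.16.

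For R47H against KO (0 lower, 27 higher, median 0.25), 14 were higher with no filter, 4 with library weights and 9 with only these 2 groups. Quantile normalization gave 6 higher and 2 lower, and the short mRNA covariate 2 higher and 1 lower with a median of -0.032. Leaving out each library gave 0 lower, 10 to 49 higher and medians of 0.17 to 0.32. Within wild type (0 lower, 1 higher, median -0.10), equal sums gave 1 lower and 0 higher, equal sums of the other genes 1 and 0, quantile normalization 1 lower, library weights 8 lower and the short mRNA covariate 13 lower. Leaving out each library gave 0 lower, 0 or 1 higher and medians of -0.13 to -0.06. Under quantile normalization Rps4x differed by -0.11 in R47H against wild type (0.05 as reported), and Rpl3 and Rpl7 by -0.13 and -0.027 in R47H against KO (0.09 and 0.21). The cause of these shifts was not tested.

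With a replicate block, KO against wild type gave 26 lower and 0 higher with a median of -0.19, R47H against wild type 1 lower and 0 higher, and R47H against KO 32 higher. Same-numbered libraries correlated from -0.25 to 0.34 in their deviations. This check covered numbers 1 to 5 only, so it does not settle whether the numbers pair the samples. Wild-type libraries with a higher number share it with no mutant library, so they cannot be compared within a block. The KO median with the block, -0.19, was also that with WT Rep1 to Rep5 alone as controls.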

Other observations

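Ribosomal protein transcripts made up 8.72% ± 0.603 of the summed FPKQ of a library in the controls, 7.59% ± 0.809 in KO and 8.72% ± 0.819 in R47H (SD; n = 10, 5 and 5). The sum over all genes was itself unequal, at 585551 ± 14842 for the controls, 620288 ± 12874 for KO and 638276 ± 41075 for R47H, so a share and a level do not give the same picture for R47H. As a level the 81 genes summed to 51131 FPKQ for the controls, 47134 for KO and 55898 for R47H.

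Copies of several further ribosomal protein genes were also listed well above 1 FPKQ. Rps23-ps1 was listed at 166 FPKQ beside Rps23 at 611, Gm7536 at 191 beside Rpl27a at 262, Gm2000 at 88.9 beside Rpl35 at 426, Rpl28-ps1 at 69.4 beside Rpl28 at 296 and Rpl31-ps8 at 62.6 beside Rpl31 at 485. Rps23-ps1, Gm7536, Rpl28-ps1 and Rpl31-ps8 are identical to their genes over the aligned coding sequence, so these listed levels do not show that the copies were transcribed. When Rpl35 was summed with Gm2000 its KO difference went from -0.16 (limma adjusted p = 0.292) to -0.27 (0.0166), and when Rpl15 was summed with its 2 copies it went from -0.26 (0.0112) to -0.14 (0.2). The listed level of a ribosomal protein gene with such a copy can therefore lose or gain a call depending on whether the copies are added.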
